A study of Mus musculus with 3 samples.

Results

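The 95 nuclear genes of oxidative phosphorylation described here are named as subunits of respiratory complexes I to IV and of ATP synthase, or as assembly factors of complexes I and II. Their symbols start with Nduf, Uqcr, Cox4, Cox5, Cox6, Cox7, Cox8, Sdh or Atp5. Of 98 such symbols among 32285 annotated genes, 95 had at least 10 unique molecular identifiers (UMIs, counted transcripts) in every library. They comprised 37 complex I subunits, 8 complex I assembly factors, 4 complex II subunits and 4 complex II assembly factors, 8 complex III subunits, 17 complex IV subunits and 17 ATP synthase subunits. Ndufa4 and Ndufa4l2 were counted with complex IV, to which the Ndufa4 protein is now assigned. Cox7a2l, a factor that joins complexes III and IV, was also counted there. Ndufb1-ps, counted with complex I by its symbol, has a noncoding type (bidirectional promoter RNA) in the GRCm38 annotation used for positions. Just inside the limit lay Ndufa4l2 with 25, 321 and 182 UMIs in libraries 1, 2 and 3, and just outside it Cox6a2 with 1, 77 and 54. The other symbols below it were Cox8c, with 2 UMIs, and Cox7b2, with 0.

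The data came from 3 droplet single-cell libraries of mouse small intestine, all from wild type C57Bl/6 females aged 9 to 10 weeks, for which no treatment is named. Each library pooled tissue from 4 animals, without the duodenum. EDTA and DTT removed epithelium, digestion with Liberase TL and DNase I at 37 °C took 60 min, and live nucleated CD45- CD31+ PDPN+ cells were sorted in an enrichment mode. The labels call the cells endothelial, although gates for epithelial, stromal and immune cells also found cells. There is thus 1 group, and the comparisons lie between cell classes or cell states within each library. Whether libraries shared animals is not stated, so p-values measure the spread between these 3 libraries, which may be technical.

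In the inner mitochondrial membrane, complexes I and II feed electrons from NADH and succinate through ubiquinone to complex III, and cytochrome c carries them on to complex IV, which reduces oxygen. Complexes I, III and IV pump protons, and ATP synthase makes ATP with the gradient. The mitochondrial genome encodes a small core of complexes I, III, IV and ATP synthase, and nuclear genes encode everything else, all of complex II included. Endothelium is known to draw much of its ATP from glycolysis, whereas absorptive epithelium and muscle are known for heavy use of respiration.

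Barcodes under 500 genes or over 15% of UMIs in mitochondrially encoded (mt-) genes were removed, which left 22534 of 24541 with median depths of 6698 to 7979 UMIs. Classes were gated on marker UMIs, and 611 barcodes that met 2 gates or more were left out. Lymphatic endothelial cells (LEC, at least 1 Prox1 and 5 Lyve1 UMIs) numbered 5656, 4770 and 8143 in the 3 libraries. The others were few: 149 blood endothelial cells (BEC), 616 epithelial cells, 330 fibroblasts, 211 smooth muscle cells, 203 macrophages, 118 T cells, 55 plasma cells and 13 pericytes in all. Lymphatic markers outside the gate summed to 14139 CPM (UMIs scaled to an equal total) in LEC against 269 in BEC, although Mmrn1, also on that list, was at 0 UMIs in all classes. Epithelial markers outside the gate summed to 8.55, 48.4 and 22.6 CPM in LEC of libraries 1, 2 and 3, and smooth muscle markers to 7.19, 19.2 and 12.7. Library 2 held the most cells of both types. Libraries shared 13 to 30 barcodes by pair.

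Because members of the respiratory chain are known to be driven in part by shared promoter factors, the start regions were read for 4 short motifs. RefSeq windows of GRCm38.p6, from 250 bases before to 50 bases after a start, were found for 78 of the 95 members. The motif of NRF1, nuclear respiratory factor 1 (GCGC, any base, then TGCGC), searched on both strands, lay in 21 of the 78, or 26.9%, against 5.19% of all 27025 genes with a window and 11.3% of the 9554 of them tested between classes. The YY1 motif AAGATGGC lay in 12.8% of members, 3.19% of all genes and 5.20% of tested genes. The ETS motif CCGGAAG, which GABPA can bind, lay in 28.2%, 9.93% and 19.8%. The estrogen-related receptor motif TCAAGGTCA lay in only 2 of the 78 members, or 2.56%, against 0.466% and 0.272%. The motifs did not overlap in the windows printed here. A match describes letters and is no evidence of binding.

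The windows of 6 members that the results turn on are given 5′ to 3′ along the gene, with any NRF1, YY1, ETS or estrogen-related receptor match in capitals. Atp5k (chr5:108434350-108434649, minus strand) and Cox6a1 (chr5:115348909-115349208, minus strand) stand for members with NRF1 and ETS matches. Ndufa4 (chr6:11907401-11907700, minus strand), Ndufc2 (chr7:97399753-97400052, plus strand), Cox7a1 (chr7:30183921-30184220, plus strand) and Cox6b2 (chr7:4753045-4753344, minus strand) are members described singly further on, and none of the 4 motifs was found in these windows.
Atp5k: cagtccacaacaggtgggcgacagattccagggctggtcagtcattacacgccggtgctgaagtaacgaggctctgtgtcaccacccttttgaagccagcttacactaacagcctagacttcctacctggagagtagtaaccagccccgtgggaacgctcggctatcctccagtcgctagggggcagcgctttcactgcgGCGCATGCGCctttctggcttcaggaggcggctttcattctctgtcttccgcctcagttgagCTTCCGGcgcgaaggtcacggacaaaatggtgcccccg
Cox6a1: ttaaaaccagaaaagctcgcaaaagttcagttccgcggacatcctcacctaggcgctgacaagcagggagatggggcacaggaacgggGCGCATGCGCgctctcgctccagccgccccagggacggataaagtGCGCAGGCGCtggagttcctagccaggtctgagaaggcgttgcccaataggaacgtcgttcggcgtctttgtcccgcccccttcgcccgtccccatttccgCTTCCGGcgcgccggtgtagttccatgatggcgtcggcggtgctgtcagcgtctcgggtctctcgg
Ndufa4: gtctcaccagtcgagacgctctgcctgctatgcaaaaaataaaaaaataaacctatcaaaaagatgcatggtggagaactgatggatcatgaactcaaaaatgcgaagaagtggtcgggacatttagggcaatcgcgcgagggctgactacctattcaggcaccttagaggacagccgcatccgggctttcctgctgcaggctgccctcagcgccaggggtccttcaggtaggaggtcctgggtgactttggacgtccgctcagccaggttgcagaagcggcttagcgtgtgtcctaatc
Ndufc2: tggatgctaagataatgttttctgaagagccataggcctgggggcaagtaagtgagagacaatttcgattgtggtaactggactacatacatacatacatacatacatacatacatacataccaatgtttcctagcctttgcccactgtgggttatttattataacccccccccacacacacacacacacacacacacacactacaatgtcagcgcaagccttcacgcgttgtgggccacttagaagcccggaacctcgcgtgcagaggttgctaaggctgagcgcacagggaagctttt
Cox7a1: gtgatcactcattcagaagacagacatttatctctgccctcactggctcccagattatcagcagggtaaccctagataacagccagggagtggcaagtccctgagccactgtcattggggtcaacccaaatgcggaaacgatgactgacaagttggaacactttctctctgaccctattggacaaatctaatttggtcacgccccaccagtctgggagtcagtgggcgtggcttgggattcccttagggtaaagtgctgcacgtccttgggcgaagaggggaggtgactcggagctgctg
Cox6b2: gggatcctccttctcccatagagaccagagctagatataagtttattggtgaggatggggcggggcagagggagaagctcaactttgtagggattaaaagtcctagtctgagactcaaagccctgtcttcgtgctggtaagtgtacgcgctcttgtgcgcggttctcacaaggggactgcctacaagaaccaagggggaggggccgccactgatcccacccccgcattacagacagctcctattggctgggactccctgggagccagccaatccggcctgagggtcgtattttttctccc

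In LEC the 95 members together took 1.51%, 1.73% and 1.57% of all UMIs in libraries 1, 2 and 3. Complex I made up 0.529% ± 0.038 (SD, n = 3), ATP synthase 0.440% ± 0.031, complex IV 0.410% ± 0.029, complex III 0.169% ± 0.011 and complex II 0.0293% ± 0.0009. The assembly factors of complex I took 0.0166% and those of complex II 0.00983%. A 3′ library counts transcript ends and not bases, so CPM is not scaled by gene length here. On that scale the most abundant member was Cox4i1, a nuclear subunit of the complex IV core assembly, with 690, 796 and 765 CPM. Cox6c of the same complex had 492 CPM ± 47.2. Atp5e and Atp5h, of the central and peripheral stalks of ATP synthase, had 497 ± 54.7 and 443 ± 35.9.

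Uqcrh (421 CPM ± 35.1) and Uqcrb (302 ± 15.6) led complex III in LEC. Ndufc2 (285 ± 21.7) and Ndufa13 (256 ± 23.5), both of the complex I membrane arm, led complex I. The flavoprotein Sdha had 112 CPM ± 0.87 and the iron-sulfur protein Sdhb 83.8 ± 7.44, and the membrane anchors Sdhc and Sdhd had 50.2 ± 1.87 and 46.5 ± 1.48. Assembly factors were lower: Ndufaf8 had 38.6 CPM ± 3.48 and Ndufaf2 31.2 ± 0.68 for complex I, and Sdhaf2, which attaches the flavin to Sdha, had 33.8 ± 1.07 beside Sdhaf1 with 28.5 ± 1.65.

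Epithelial cells and smooth muscle cells stood well above LEC in the summed share. Epithelial cells gave 5.76%, 5.17% and 5.34%, and smooth muscle cells 4.07%, 4.63% and 2.99%, so that no library of either overlapped LEC. T cells followed with 2.17% ± 0.11. LEC at 1.60% ± 0.11, macrophages at 1.58% ± 0.28, pericytes at 1.72% and 1.28% (libraries 2 and 3), BEC at 1.46% ± 0.10 and fibroblasts at 1.46% ± 0.11 overlapped each other from library to library. Plasma cells were lowest on average at 1.19% ± 0.18. Their sums held 4, 29 and 22 cells in libraries 1, 2 and 3. Plasma markers outside the gate, Igha among them, summed to 193700, 120330 and 117450 CPM there, and their part in the low share was not tested. Within each library BEC still lay below LEC, at 0.908, 0.908 and 0.915 times its share. Fibroblasts lay at 0.928, 0.915 and 0.882 times.

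**Figure D1:**
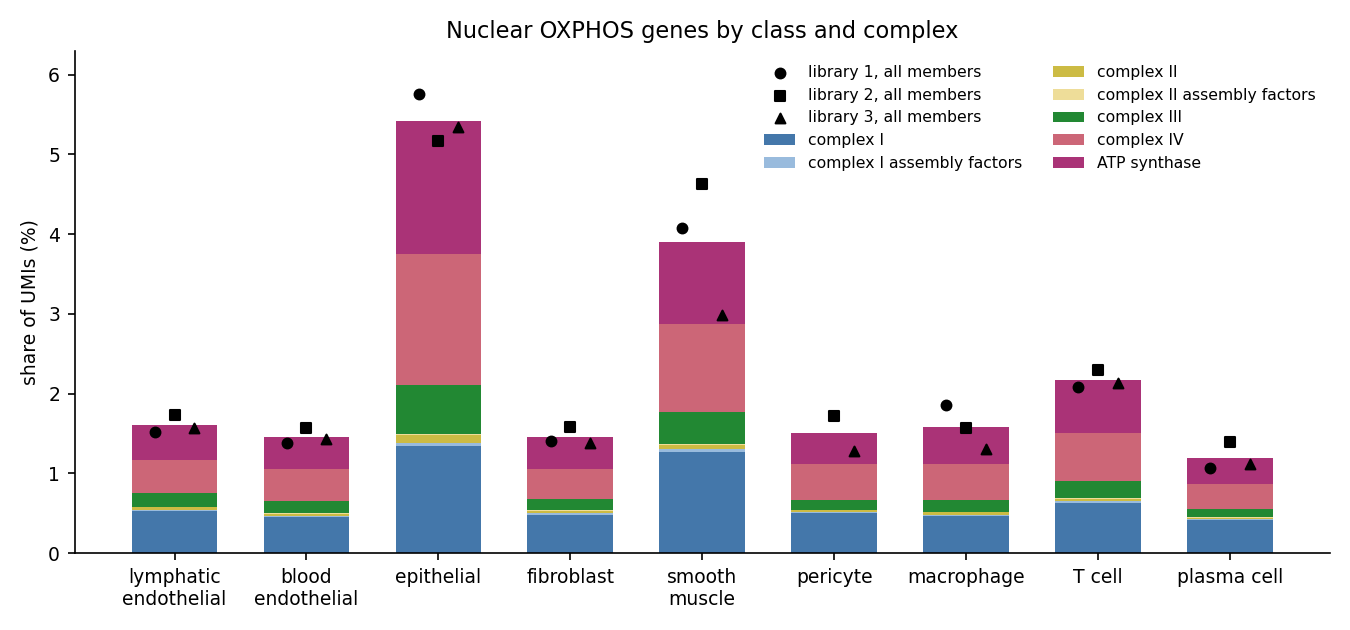
Share of all UMIs (%) taken by the 95 members in each gated class. Bars stack the mean of the libraries by complex, and black symbols give the total in each library (pericytes: libraries 2 and 3 only). Epithelial cells (5.42% on average) and smooth muscle cells (3.90%) lie above every other class, and LEC (1.60%) lie among the rest.

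By complex, the share of epithelial cells was 4.03 ± 0.48 times that of LEC for complex IV, 3.82 ± 0.48 for ATP synthase, 3.75 ± 0.39 for complex II and 3.65 ± 0.42 for complex III, which overlapped. It was 2.56 ± 0.29 times for complex I, 1.86 ± 0.24 for the complex I assembly factors and 0.992 ± 0.148 for those of complex II. In smooth muscle cells the factors ran from 2.04 ± 0.42 (complex II) to 2.70 ± 0.50 (complex IV) for the subunits, and were 1.87 ± 0.34 and 1.05 ± 0.10 for the assembly factors of complexes I and II. The share of epithelial cells moved with the setting. It was 4.22% when cells were thinned to 3000 UMIs and gated again on the thinned counts. That setting changes which cells are taken and gives each cell equal weight, so it does not isolate depth. With no limit on the mt- share it was 4.73%. In smooth muscle cells the low value of library 3 came with a lower smooth muscle marker sum outside the gate, 16980 CPM against 26625 and 28905 in libraries 1 and 2, and its part in the share was not tested.

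UMIs of the 13 mitochondrially encoded subunits per UMI of the 95 nuclear members were 1.32, 1.05 and 1.18 in LEC and 1.18, 1.02 and 1.37 in plasma cells, the lowest means of the classes. Epithelial cells had 1.31, 1.22 and 1.37, overlapping LEC. Smooth muscle cells had 1.85, 1.30 and 1.85, BEC 2.23, 1.49 and 1.66, and fibroblasts 2.08, 1.71 and 2.12. In each library LEC were below BEC, fibroblasts and smooth muscle cells. The limit of 15% on mt- UMIs was the same for all classes.

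Against epithelial cells, 89 of 94 tested members were lower in LEC and 0 were higher (edgeR quasi-likelihood test on counts summed per library and class, library as block, Benjamini-Hochberg adjusted p under 0.05 over 12173 genes). Of all tested genes 38.0% were lower and 38.7% higher in LEC. At an unadjusted p under 0.05 also 0 members were higher, beside 4799 of all genes. DESeq2 called 89 members lower and 0 higher, beside 38.5% and 35.1% of all genes. The members' median log2 fold change was -1.94, against 0.05 over all genes. All 37 complex I, 4 complex II, 8 complex III and 17 ATP synthase subunits and all 8 complex I assembly factors were lower, as were 13 of 16 tested complex IV subunits. Of the 4 complex II assembly factors, Sdhaf1 and Sdhaf3 were. The 3 complex IV genes not called were Cox4i2, Cox6b2 and Ndufa4l2. Over the settings that tested them, Cox4i2 ran from 1.26 to 4.96 and Ndufa4l2 from 1.88 to 6.14, toward LEC and with no call. Epithelial cells were also the deeper class, with median depths of 20397 to 27056 UMIs against 6770 to 8133 in LEC. The part of depth was examined only by thinning, which also gated the cells again. After it 78 of 86 tested members were lower, beside 33.1% of 7180 genes. Cytosolic ribosomal protein genes, another class of short abundant transcripts, were also lower in LEC, 85 of 86, with a median of -1.02.

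Among single members, Sdhb was at 75.3, 87.6 and 88.7 CPM in LEC and 404, 376 and 448 in epithelial cells (log2 fold change -2.64 ± 0.18 SE, adjusted p = 7.89e-11, edgeR). Cox8a, the broadly expressed form of subunit 8, was at 461 ± 25.1 CPM in LEC and 2061 ± 126 in epithelial cells (-2.52 ± 0.16, adjusted p = 2.61e-11). The smallest called gaps included Cox7a2l, a factor that joins complexes III and IV, at -0.59 ± 0.16 (adjusted p = 0.00272), and Ndufc2 at -0.66 ± 0.16 (adjusted p = 0.00109). Ndufc2 was no longer called when cells were thinned to 3000 UMIs (-0.11, adjusted p = 0.579). Sdhaf1 was called at -0.64, but gave 0.10 and no call after thinning, and its CPM was lower in LEC in 2 of 3 libraries.

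Of the other genes of the pathway, all 13 mitochondrially encoded subunits were lower in LEC (median -2.31), as were all 13 genes of the TCA cycle list (-2.05). Atpif1, which restrains ATP hydrolysis by ATP synthase, was at 210 ± 19.8 CPM in LEC and 1534 ± 20.4 in epithelial cells. The co-activator Ppargc1a, a known driver of mitochondrial gene expression, was at 0.18 CPM ± 0.13 in LEC and 42.0 ± 7.65 in epithelial cells. In the regulator list 4 of 9 genes were lower and 4 higher in LEC, Gabpa among the higher (54.4 ± 5.58 against 19.3 ± 2.38 CPM). Of the 6 carriers 5 were lower and 1 higher. The adenine nucleotide carriers differed in direction, with Slc25a4 higher in LEC (274 ± 10.3 against 16.7 ± 4.88 CPM) and Slc25a5 lower (174 ± 5.76 against 1300 ± 47.9). Of 14 tested glycolysis genes 11 were lower and 2 higher. Among the hexokinases Hk1 was higher in LEC (48.1 ± 3.12 against 2.36 ± 0.51 CPM) and Hk2 lower (1.99 ± 0.68 against 54.9 ± 21.5).

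Against smooth muscle cells, 86 of 94 members were lower in LEC and 0 higher, where 26.3% of all tested genes were lower and 28.3% higher. No member was higher at an unadjusted p under 0.05 either, and DESeq2 called 89 lower and 0 higher. The median over members was -1.35 and over all genes 0.11. Calls covered 35 of 37 complex I, 3 of 4 complex II, 8 of 8 complex III, 15 of 16 complex IV and 17 of 17 ATP synthase subunits. Unlike the epithelial comparison, 25 of 86 ribosomal protein genes were lower (median -0.24) and 1 was higher. The difference between these ribosomal counts was not tested.

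Of the mitochondrially encoded subunits 12 of 13 were lower in LEC than in smooth muscle cells, led by mt-Cytb of complex III (1719 ± 53.7 against 9966 ± 867 CPM). All 6 carriers were lower, including Slc25a4 (274 ± 10.3 against 1106 ± 375 CPM). Of 14 tested glycolysis genes 13 were lower as well, with Ldhb, the lactate dehydrogenase subunit typical of oxidative tissue, at 2.22 ± 0.55 against 269 ± 75.7 CPM. Higd1a, a small factor of complex IV, was at 49.5 ± 3.50 against 414 ± 111 CPM. Of the 9 regulators 4 were higher in LEC and 3 lower (median 0.56). Gabpa was at 54.4 ± 5.58 against 29.9 ± 8.80 CPM (0.82 ± 0.21, adjusted p = 0.00251, edgeR), and Esrra, the estrogen-related receptor alpha gene, at 15.5 ± 1.12 against 20.3 ± 3.02 (-0.60 ± 0.22, adjusted p = 0.029, edgeR).

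Against BEC most members passed no test. Of 94, 11 were higher in LEC and 4 lower, shares of 11.7% and 4.26% beside 14.3% and 12.6% of all genes. The median of 0.19 was near that of all genes, 0.21. The BEC sums held 36, 72 and 41 cells, and fibroblast markers in them summed to 93.3, 23.1 and 1142 CPM in libraries 1, 2 and 3, whose part was not tested. The 11 calls became 0 without library 1, 0 without library 2 and 2 without library 3, and 2 with DESeq2, whose scaling put the median of all genes at -0.04. DESeq2 called 8 lower, and of all genes it called 9.93% higher and 18.6% lower. Complex I held 9 of the 11. The iron-sulfur subunit Ndufs8 was at 112, 130 and 125 CPM in LEC and 74.6, 69.2 and 87.5 in BEC (0.73 ± 0.22, adjusted p = 0.0172, edgeR).

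The 4 members lower in LEC than in BEC were Ndufa4, Ndufa8, Ndufa4l2 and Cox4i2. Ndufa8, an accessory subunit of complex I on the intermembrane side, was at 93.5, 105 and 102 CPM in LEC and 154, 231 and 166 in BEC (-0.89 ± 0.18, adjusted p = 0.000745, edgeR). Its call was lost without library 2 (-0.69, adjusted p = 0.0509). Outside the members, 9 of 13 mitochondrially encoded subunits were lower in LEC (median -0.52), with mt-Nd1 of complex I at 661 ± 49.4 against 1246 ± 266 CPM. Ribosomal protein genes were lower in 47 of 86. Hif1a, the oxygen-responsive factor, was at 74.4 ± 3.42 CPM in LEC against 183 ± 37.4 in BEC and 49.3 ± 3.24 in fibroblasts, both called. The glycolysis list was lower in 8 of 14. The glucose transporter gene Slc2a1 had 10.8 CPM ± 0.56 in LEC and 93.3, 28.0 and 48.1 in BEC.

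Fibroblasts differed from LEC in both directions. Of 94 members 22 were higher in LEC and 7 lower, beside 25.7% and 22.1% of all genes, with medians of 0.20 and 0.10. The 22 became 12, 10 and 9 without library 1, 2 and 3, and 9 with DESeq2, which called 11 lower. Of all genes DESeq2 called 17.5% higher and 26.7% lower. The 22 higher in LEC included 10 complex I, 4 complex III and 5 complex IV subunits. Cox5a, which sits beside the catalytic core of complex IV, was at 215, 236 and 228 CPM in LEC and 126, 129 and 124 in fibroblasts (0.91 ± 0.21, adjusted p = 0.00122, edgeR). Cox4i1, Cox6a1, Cox6b1 and Cox7a2 were the other 4, at 0.58 to 0.87. The copper chaperone Cox17, outside the rule, was at 189 ± 22.6 against 55.3 ± 8.73 CPM. At the same time 10 of 13 mitochondrially encoded subunits were lower in LEC (median -0.53), with mt-Cytb at 1719 ± 53.7 against 4008 ± 183 CPM.

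**Figure D2:**
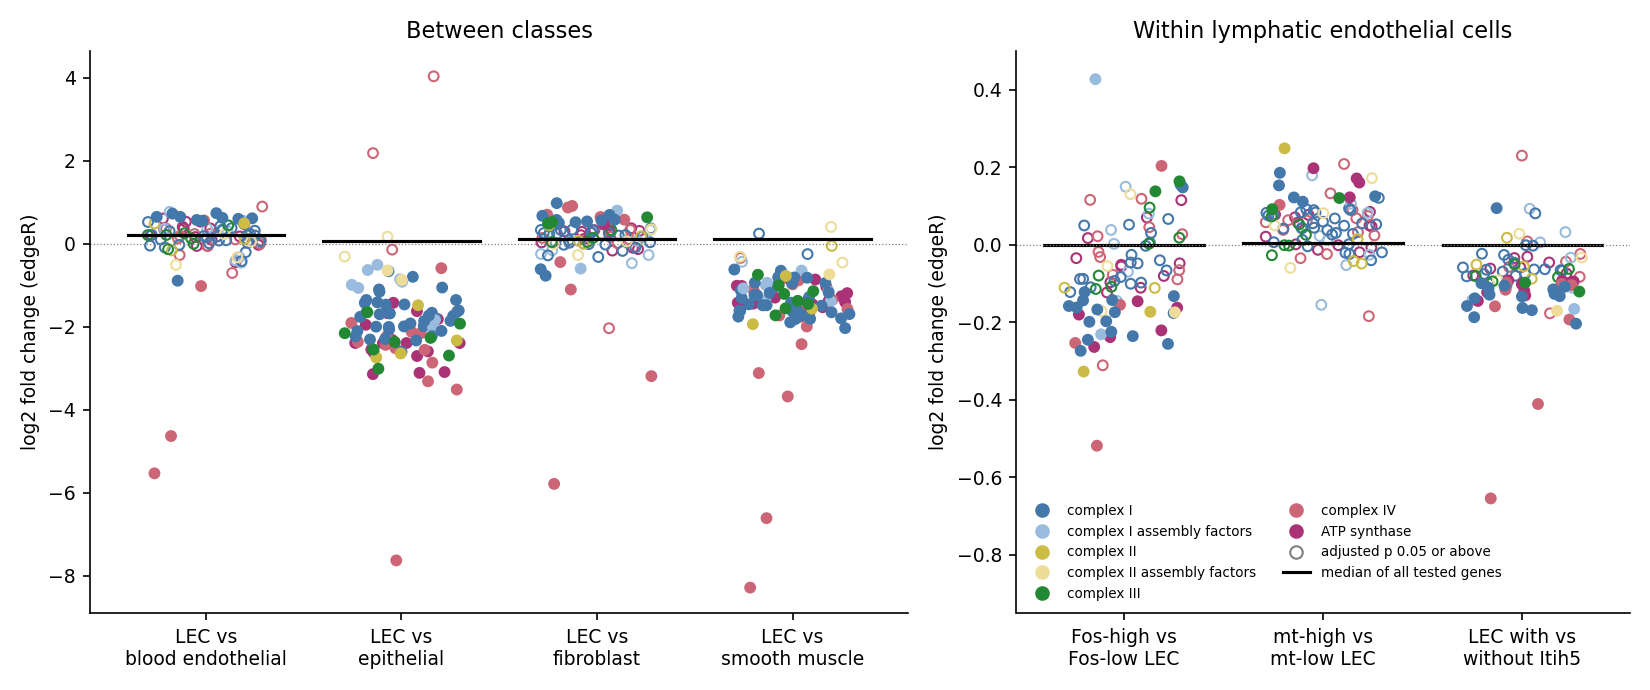
Log2 fold change of every tested member in the 7 comparisons (first-named group over the second), coloured by complex, with filled symbols at adjusted p under 0.05 and black bars at the median of all tested genes. Most members lie below the bar against epithelial and smooth muscle cells (91 and 92 of 94 are negative) and around it against BEC and fibroblasts. The isolated low points are the complex IV isoforms and Ndufa4. Against epithelial cells 3 members are positive, up to 4.03 for a complex IV isoform, with no call.

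Ndufa4 was lower in LEC than in each of the 4 classes tested. Its gene (chr6:11900292-11907497, GRCm38, minus strand) encodes a small protein first assigned to complex I and now to complex IV. It was at 131, 152 and 118 CPM in LEC, the lowest mean of the 8 classes with cells in all libraries. BEC had 196, 339 and 276, fibroblasts 326, 327 and 250, and macrophages 509, 295 and 234. T cells had 406, 460 and 461, plasma cells 678, 616 and 586, smooth muscle cells 1238, 1299 and 789, and epithelial cells 1240, 1104 and 1195. No library of these other classes fell into the LEC range. BEC, fibroblasts and macrophages overlapped each other, as did smooth muscle and epithelial cells.

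The edgeR log2 fold change of Ndufa4 in LEC was -1.02 ± 0.21 against BEC (adjusted p = 0.000988), -1.10 ± 0.20 against fibroblasts (adjusted p = 0.00012), -3.12 ± 0.21 against smooth muscle cells (adjusted p = 3.11e-10) and -3.51 ± 0.21 against epithelial cells (adjusted p = 1.44e-11). It passed the threshold in all 4 comparisons under each of the 13 settings tried. The 13 pericytes held 4 UMIs of Ndufa4, 95.2 CPM in library 2 and 0 in library 3, below LEC. Plasma cells, in which plasma markers outside the gate summed to 143820 CPM on average, had the lowest mean CPM of the 8 classes for 52 members. For Ndufa4, however, only epithelial and smooth muscle cells were above them.

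LEC had the lowest mean for 3 other members, Atp5f1 (170 CPM ± 5.07), Ndufa3 (105 ± 16.4) and Ndufaf8 (38.6 ± 3.48). The next class overlapped LEC for Atp5f1 (fibroblasts 172 ± 9.81) and Ndufa3 (BEC 109 ± 10.9). For Ndufaf8, BEC at 42.0, 62.6 and 48.1 CPM also overlapped LEC, at 35.2, 42.2 and 38.6. No member had its highest mean in LEC: 67 were highest in epithelial cells, 21 in smooth muscle cells, 4 in T cells, 2 in fibroblasts and 1 in macrophages.

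Ndufc2 was higher in LEC than in BEC and fibroblasts. The gene (chr7:97400003-97407802, GRCm38, plus strand) encodes a subunit of the complex I membrane arm. LEC had 296, 300 and 260 CPM, second to epithelial cells with 370, 331 and 357. Smooth muscle cells followed with 243, 262 and 183, the upper end of which overlapped LEC, and BEC with 154, 173 and 201. The remaining classes overlapped BEC, apart from plasma cells. Macrophages had 162 CPM ± 35.7 on average, fibroblasts 117, 178 and 153, T cells 116, 176 and 114, and plasma cells 98.2, 92.2 and 68.9. Against fibroblasts the log2 fold change was 0.98 ± 0.17 (adjusted p = 0.000108, edgeR) and against BEC 0.72 ± 0.19 (adjusted p = 0.00666). The second lost its call without library 1 (0.59, adjusted p = 0.0715) and without library 2 (0.66, adjusted p = 0.0881). Against smooth muscle cells it was 0.24 ± 0.17 (adjusted p = 0.255).

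**Figure D3:**
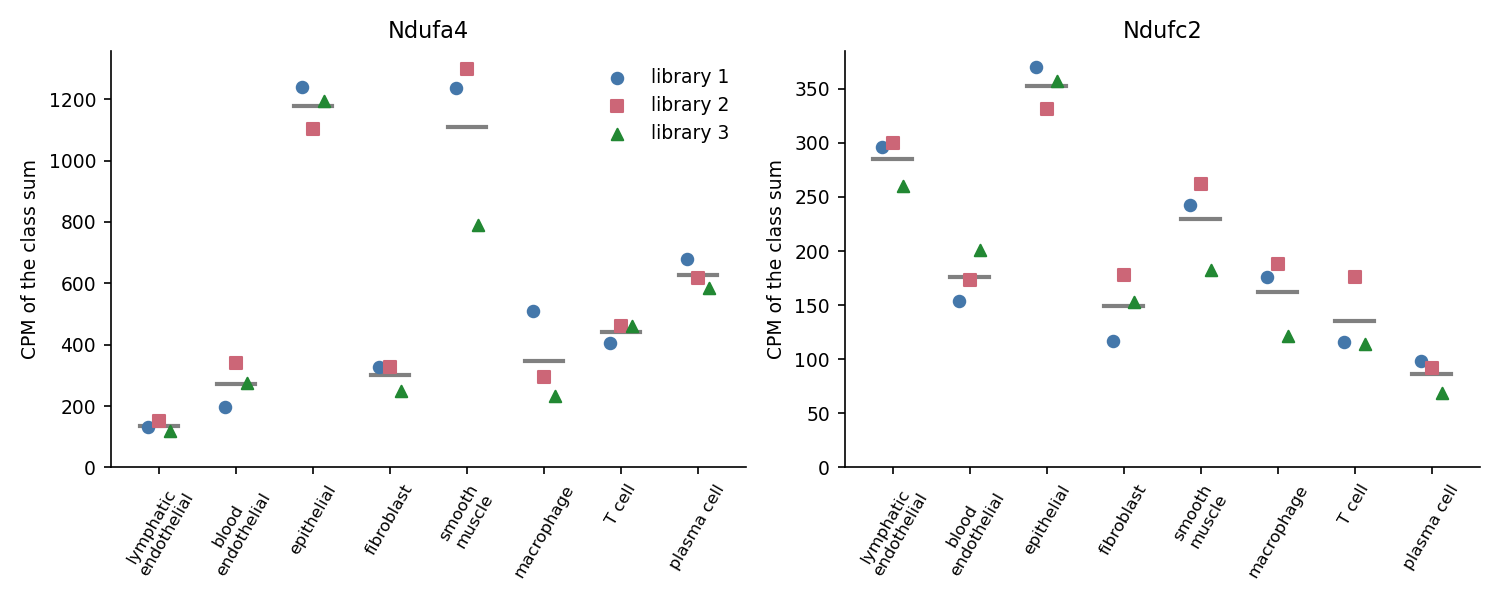
CPM of Ndufa4 and Ndufc2 in the summed cells of each class, with 1 symbol per library and a grey line at the mean. LEC are lowest of the 8 classes for Ndufa4 (134 CPM) and next to highest for Ndufc2 (285 CPM).

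Complex IV has nuclear subunits that come in tissue-specific pairs, and these gave the largest differences between classes. Cox7a1 (chr7:30184144-30186078), the form known from heart and skeletal muscle, was at 207, 227 and 264 CPM in epithelial cells and 0.76, 2.94 and 1.28 in LEC (log2 fold change -7.63 ± 0.31, adjusted p = 5.95e-14, edgeR). Of the Cox7a1 and Cox7a2 UMIs together, Cox7a1 took 17.1% in epithelial cells (exact 95% interval 16.7 to 17.6, counting error only) and 0.459% in LEC. LEC of library 2 held the most Cox7a1. Among the 3 libraries their marker sums were also highest for the epithelial (48.4 CPM), smooth muscle (19.2) and fibroblast (29.9) lists. The part of these lists in the Cox7a1 level was not tested. Smooth muscle cells had 13.9, 30.1 and 2.50 CPM, and their call against LEC was lost when barcodes in 2 gates were kept as LEC (-1.11, adjusted p = 0.158).

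Cox6b2 (chr7:4751792-4753094), the form known from testis, was at 47.2, 56.7 and 35.7 CPM in fibroblasts and 4.79, 5.94 and 3.64 in LEC (-3.19 ± 0.22, adjusted p = 3.88e-10, edgeR). It took 17.0% of the Cox6b1 and Cox6b2 UMIs in fibroblasts (14.5 to 19.7), 4.17% in smooth muscle cells, 1.26% in LEC and 0.350% in epithelial cells. Its level in smooth muscle cells was 10.4, 35.8 and 15.0 CPM (-2.42 ± 0.27, adjusted p = 2.82e-07). Fibroblast markers outside the gate summed to 2940 CPM in smooth muscle cells, and their part in that level was not tested.

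Ndufa4l2 and Cox4i2, paralogs of Ndufa4 and Cox4i1 that are known to respond to low oxygen and to mark pericytes, were concentrated in the gate for pericytes (Rgs5, Notch3 and few Myh11 UMIs). Its 13 cells, 8 in library 2 and 5 in library 3, held 41 Ndufa4l2 UMIs beside 4 of Ndufa4, so that Ndufa4l2 took 91.1% of the pair (78.8 to 97.5). Cox4i2 took 30 of 75 UMIs, or 40.0% (28.9 to 52.0). These are descriptions of 13 cells, with no test. In smooth muscle cells Ndufa4l2 was at 0, 54.0 and 128 CPM and Cox4i2 at 0, 26.5 and 103, with no UMI of either in the 22 cells of library 1. Pericyte markers outside the gate summed to 371, 477 and 388 CPM in smooth muscle cells and to 315, 381 and 250 in fibroblasts, and their part was not tested. Against LEC both were called in edgeR (-8.28 ± 0.60, adjusted p = 3.85e-09, and -6.61 ± 0.70, adjusted p = 1.87e-07), in 2 of 3 libraries. Ndufa4l2 was also lower in LEC than in fibroblasts, which had 13.5, 11.5 and 10.4 CPM (-5.78 ± 0.78, adjusted p = 8.11e-06).

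In BEC these paralogs rested on 9 and 10 UMIs. Ndufa4l2 was at 23.3, 4.94 and 4.38 CPM, against 0.10, 0.22 and 0.23 in LEC (-5.53 ± 1.33, adjusted p = 0.00454, edgeR), and Cox4i2 at 28.0, 6.59 and 0 against 0.39, 0.36 and 0.53 (-4.63 ± 1.30, adjusted p = 0.0119). Cox4i2 lost its call without library 1 (adjusted p = 0.0683), and both did when barcodes in 2 gates were kept as LEC.

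Of the remaining pairs, Cox8b, a muscle form of subunit 8, had 172 UMIs in LEC, or 0.258% of the pair with Cox8a, and 23 in fibroblasts, or 1.57% (1.00 to 2.35). Epithelial cells had 0 of 37215 UMIs of the pair, which allows a share of up to 0.00991%. Cox6a2, outside the rule by its count in library 1, had 9 of 194 UMIs of the pair with Cox6a1 in BEC, or 4.64% (2.14 to 8.62), and 6 of 28474 in LEC.

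**Figure D4:**
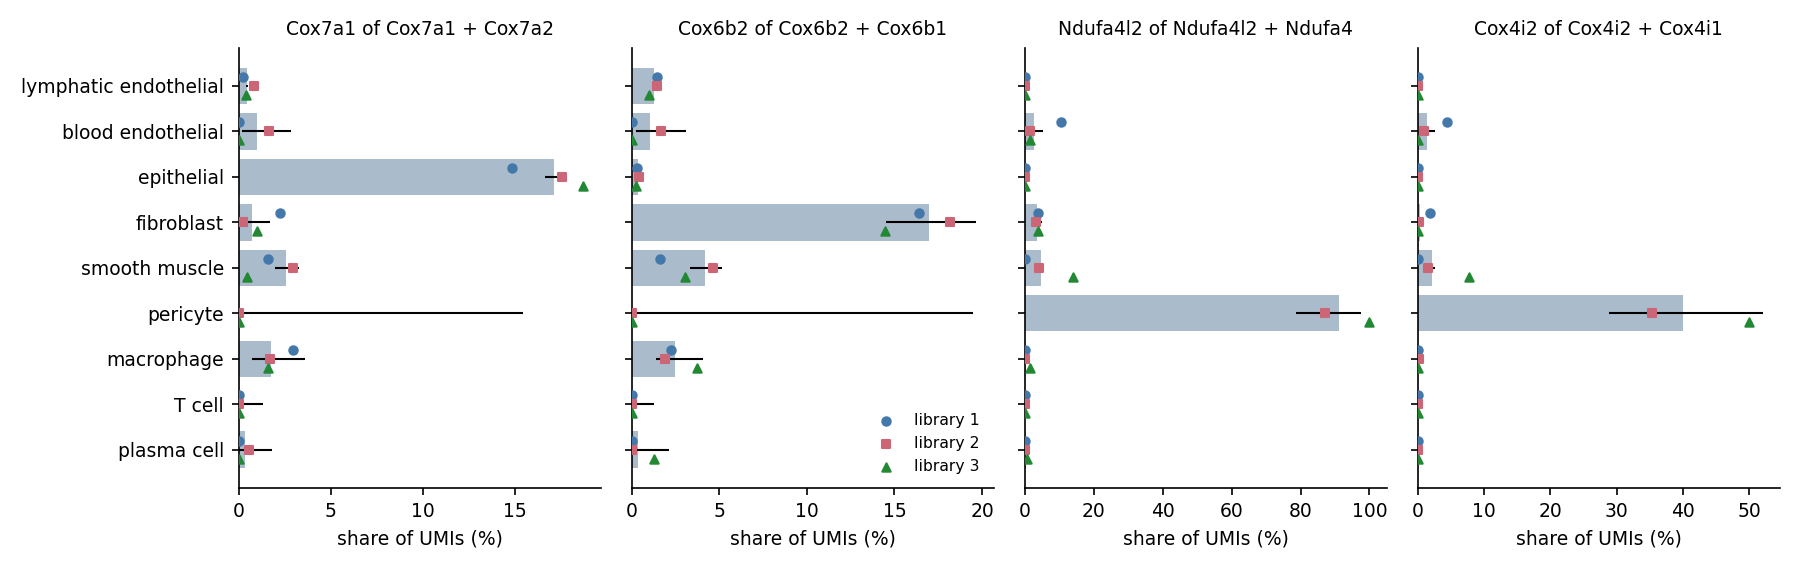
Share of UMIs (%) taken by the tissue-specific form within 4 pairs of complex IV genes, by class. Bars pool the libraries with exact 95% binomial intervals and symbols give each library (no pericytes in library 1). Cox7a1 stands out in epithelial cells (17.1%), Cox6b2 in fibroblasts (17.0%), and Ndufa4l2 (91.1%) and Cox4i2 (40.0%) in the 13 pericytes.

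Within LEC the summed share varied from cell to cell, with 5th and 95th percentiles of 0.847% and 2.16% in library 1, 1.09% and 2.48% in library 2 and 0.935% and 2.26% in library 3. It was described against 3 other measures of the same cells: the share of Fos, an immediate early gene that warm digestion is known to induce, the mt- share, and Itih5, a secreted matrix-binding protein gene (chr2:10153571-10256529) that some LEC carry. For the tests, counts were summed per library over the LEC in the top and bottom tertile of a share. Tertiles are ranges of a score and not cell types. In library 1, 247 and 669 of 5656 LEC lay within 10% of the Fos limits.

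LEC with a high Fos share had 0.823, 0.824 and 0.830 times the summed share of LEC with a low Fos share (1.46% ± 0.09 against 1.77% ± 0.11). By complex, the mean factor ran from 0.769 for complex II and 0.802 for complex I over 0.809 for ATP synthase and 0.861 for complex IV to 0.870 for complex III. The mitochondrially encoded subunits gave 0.810, 0.815 and 0.799 times, and ribosomal protein genes gave 0.967, 0.984 and 1.02 times. Over Fos deciles the median cell went from 1.67% to 1.32% in library 1, 1.84% to 1.48% in library 2 and 1.74% to 1.35% in library 3. Across single LEC the rank correlation of the summed share with the Fos share was -0.30, -0.31 and -0.30, a description over cells of 1 library whose shares have 1 total.

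The median over all genes moved with the scaling. With library totals as the only scaling, the median of all 12558 tested genes was -0.22 and that of the members -0.31. Then 81 of 93 members were lower and 0 higher, beside 48.3% and 8.44% of all genes. With TMM, which centres the genes, the medians were 0.00 and -0.09, and 29 members were lower and 6 higher, beside 14.1% and 18.5% of all genes (32.5% in either direction). Without the library block 1 was lower and 1 higher. The 29 became 30, 12 and 16 without library 1, 2 and 3, and 13 with DESeq2. The 6 became 6, 1 and 1, and 1 with DESeq2. Of all genes 10.3% were higher and 4.88% lower with DESeq2, and 9.70% and 5.24% without the block. Complex I held 16 of the 29 and ATP synthase 6. Ribosomal protein genes were higher in 73 of 86 on the TMM scale. Fos-high LEC were also deeper, with median UMIs of 8602 against 7416 in library 1, 7502 against 6413 in library 2 and 7062 against 6097 in library 3. Tertiles drawn within 10 depth bins gave 39 lower and 5 higher. Fibroblast markers summed to 21.3 CPM ± 27.1 in Fos-high and 5.97 ± 4.78 in Fos-low LEC. The macrophage list, mainly Mrc1, summed to 0.760, 0.725 and 0.658 times as much in Fos-high LEC, the T cell list to 0.757, 0.847 and 0.815 times and the LEC list to 0.883, 0.880 and 0.862 times. The part of these lists was not tested.

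Sdhc, a membrane anchor of complex II, was lower with Fos, at 40.7, 43.7 and 40.7 CPM against 56.8, 64.7 and 61.5 (-0.33 ± 0.05, adjusted p = 0.000278, edgeR with TMM). Ndufc1 of complex I was at 135, 149 and 123 against 186, 209 and 179 CPM (-0.27 ± 0.04, adjusted p = 0.000337). The largest called decrease was that of Cox6b2, a gene with few UMIs, at 3.95, 3.30 and 3.15 against 6.19, 7.56 and 4.29 CPM (-0.52 ± 0.17, adjusted p = 0.0401). Its call was lost without library 2 (-0.33, adjusted p = 0.261) and without library 3 (-0.69, adjusted p = 0.0523). Uqcrfs1, the Rieske iron-sulfur protein of complex III, was called higher at 0.16 ± 0.05 (adjusted p = 0.0172) and Ndufa6 of complex I at 0.15 ± 0.04 (adjusted p = 0.0148). Both are higher only relative to the other genes: their CPM was slightly lower in Fos-high LEC of every library, and library totals gave -0.06 and -0.07 with no call. Cox6a1 and Uqcrh turned in the same way, to -0.02 and -0.08.

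The mt- share bore a different relation to the nuclear members. Its rank correlation with the summed share was -0.01, -0.01 and 0.08 across the LEC of libraries 1, 2 and 3. Although mitochondrially encoded subunits had 2.23, 2.30 and 2.05 times the share in the top tertile, the members' share of UMIs outside mt- genes was 1.05, 1.04 and 1.09 times that of the bottom tertile. The median share was not monotonic, since in library 1 it went from 1.39% in the lowest decile to 1.59% in decile 8 and 1.24% in the highest, and in libraries 2 and 3 the highest decile (1.59% and 1.53%) also lay under the one before it (1.72% and 1.66%). That decile was the shallowest, with median depths of 4902, 5323 and 4948 UMIs.

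Of 93 members 13 were higher in mt-high LEC and 0 lower, beside 6.74% and 9.35% of 12593 tested genes (edgeR, mt- genes left out of library sizes), with medians of 0.05 and 0.00. At an unadjusted p under 0.05, 27 members were higher and 0 lower, beside 1667 and 1957 of the 12593 tested genes. The mt-high LEC were shallower, with median UMIs of 6550 against 9460, 6331 against 7693 and 6050 against 7245 in libraries 1, 2 and 3. Tertiles drawn within 10 depth bins gave 10 higher and 0 lower, beside 4.55% and 6.43% of all genes. Thinning gave 3 higher and 0 lower of 91, beside 2.57% and 3.75%. The 13 became 12, 9 and 5 without library 1, 2 and 3. DESeq2 called 2 higher and 0 lower, beside 1.37% and 2.68% of all genes. The fit without the library block called 0, with 1 higher at an unadjusted p under 0.05. That fit called almost no gene at all, 0.0079% of all tested genes higher and 0.0079% lower. Sdhc was at 56.9, 56.6 and 58.3 CPM against 44.4, 48.6 and 49.1 (0.25 ± 0.05, adjusted p = 0.00128), and Atp5k, subunit e of ATP synthase, at 186, 192 and 134 against 157, 163 and 117 (0.20 ± 0.03, adjusted p = 0.000519). The 2 shares are not independent, as mt-high LEC carried less Fos: median Fos shares were 0.391% against 0.708% in library 1, 0.136% against 0.447% in library 2 and 0.241% against 0.631% in library 3. Fibroblast markers summed to 25.1 ± 8.43 against 5.82 ± 4.74 CPM. The part of either in these differences was not tested.

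**Figure D5:**
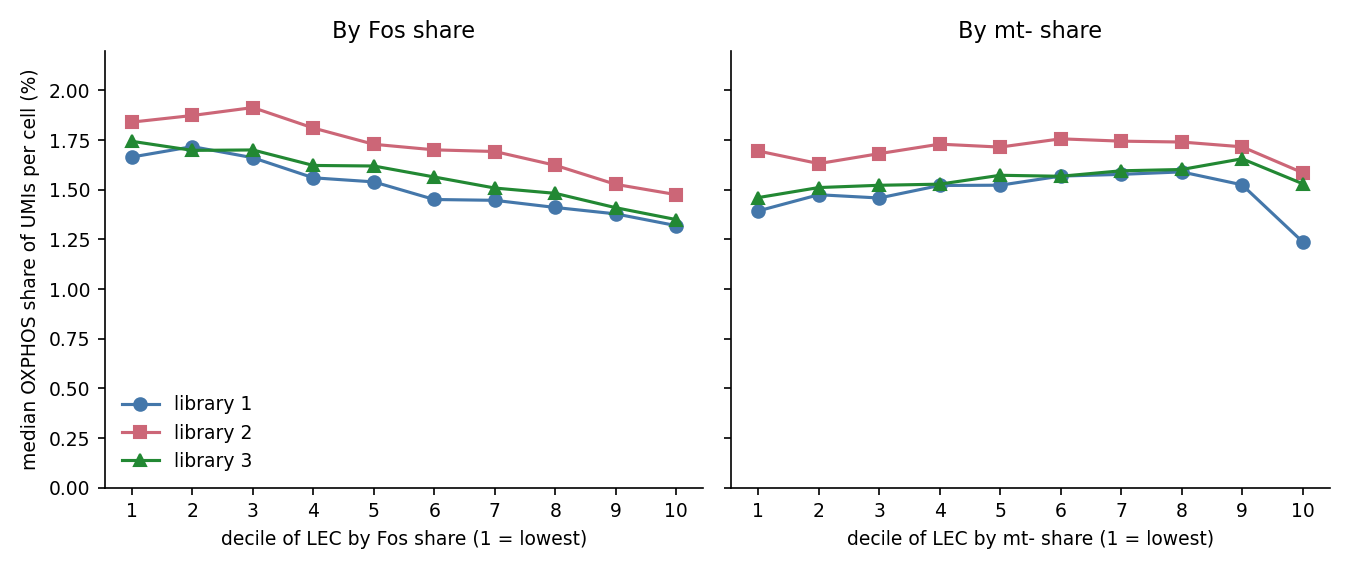
Median share of UMIs (%) taken by the 95 members per LEC, by decile of the Fos share (left) and of the mt- share (right) within each library. In each library the highest Fos decile lies below the lowest (library 1: 1.32% and 1.67%), and the highest mt- decile lies below the one before it (library 1: 1.24% and 1.53%).

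LEC with Itih5, found after thinning each cell to 3000 UMIs, numbered 1812, 1146 and 2402, and those without it 3686, 3497 and 5567. Those with it were deeper before thinning, with median UMIs of 8742 against 8038, 7621 against 7049 and 7129 against 6716. Their summed share was 0.965, 0.966 and 0.948 times that of LEC without Itih5 (1.56% ± 0.11 against 1.63% ± 0.11). Of 93 members 38 were lower with Itih5 and 1 higher, beside 9.44% and 8.54% of 13039 tested genes (edgeR; 18.0% in either direction), with medians of -0.09 and 0.00. The 38 became 38, 13 and 13 without library 1, 2 and 3, 10 with DESeq2 and 12 with library totals. Without the library block they became 0, where 1 was lower at an unadjusted p under 0.05. Of all genes 3.52% were lower with DESeq2, 6.35% with library totals and only 0.54% without the block. The 38 included 16 complex I, 8 complex IV and 10 ATP synthase subunits. Ribosomal protein genes were lower in 84 of 86 (median -0.21), and their share was 0.908, 0.880 and 0.860 times. Across single LEC the summed share ran with the ribosomal share at rank correlations of 0.58, 0.56 and 0.55. Of the 13 mitochondrially encoded subunits 0 were called in edgeR, and 2 were higher and 0 lower at an unadjusted p under 0.05. Of the 13039 tested genes 1833 were higher and 1984 lower at that unadjusted limit.

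Ndufa4 gave the largest called difference. It was at 106, 107 and 78.8 CPM in LEC with Itih5 and 144, 169 and 136 in LEC without, with no overlap (-0.65 ± 0.05, adjusted p = 2.84e-10, edgeR). Its log2 fold change ran from -0.86 to -0.56 over the 11 settings, and 10 of them passed the threshold; the fit without the library block did not (adjusted p = 0.0591). Ndufa7 of complex I was at 207, 248 and 228 against 235, 279 and 255 CPM (-0.20 ± 0.03, adjusted p = 3.34e-05). Cox6b2, at 3.95 ± 0.79 against 5.18 ± 1.30 CPM, gave -0.41 ± 0.14 (adjusted p = 0.0389) and lost its call without any 1 of the libraries. In the Fos tertiles Ndufa4 was likewise lower on the TMM scale, at 113, 128 and 102 CPM in Fos-high against 159, 175 and 142 in Fos-low LEC (-0.25 ± 0.04, adjusted p = 0.000781).

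Ndufc2 was the member called higher with Itih5, at 312, 321 and 277 CPM against 289, 293 and 253 (0.09 ± 0.03, adjusted p = 0.0351, edgeR). The ranges of the 2 sets overlapped across libraries, although the difference had 1 direction in all 3 libraries. It was not called without any 1 library (edgeR, adjusted p from 0.0723 to 0.194) or in DESeq2 (adjusted p = 0.253). Markers of other classes were as follows in the 2 sets of LEC. Epithelial markers summed to 22.6 CPM with Itih5 and 27.6 without, smooth muscle markers to 13.9 and 12.4, and fibroblast markers to 29.96 ± 39.95 and 11.1 ± 6.83. The pericyte list summed to 217 CPM with Itih5 and 124 without, and in LEC it consisted mainly of Kcnj8 (123 CPM over all LEC) and Abcc9 (29.3), while Pdgfrb was at 0.25. The macrophage list (359 against 259 CPM) likewise rested on Mrc1 (278 CPM over all LEC), with C1qb at 1.53.

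A further description concerns the few cycling LEC. LEC with at least 2 Mki67 and 2 Top2a UMIs numbered 50, 39 and 53, and their median summed share was 1.81%, 1.89% and 1.83%, beside 1.502%, 1.70% and 1.55% in the other LEC. The limits were set after the files were seen, and no test was made.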

How the data were processed

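The authors deposited raw UMI counts, 1 matrix a library. The submitters' processing notes name bcl2fastq 2.2, Cell Ranger 6.1.2, and mm10, with the annotation release not given in the sources used here. The members, gene lists, gates and tests were chosen with earlier results of these data known. Ndufa4 and Ndufa4l2 were moved to complex IV, the complex II assembly factors were set apart and the Rps6k kinases left out of the ribosomal list after the files were seen.

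Barcodes with at least 500 genes and at most 15% mt- UMIs were gated on marker UMIs; those meeting 2 gates were left out, which also served for doublets, and no doublet caller was run. Counts were summed per library and class, and the 5 classes with at least 20 cells in each library entered 1 fit. Macrophages, T cells, plasma cells and pericytes did not, so the planned test of LEC against macrophages was not run. For the quasi-likelihood test, edgeR 4.0.16 (R 4.3.3) took genes kept by filterByExpr, TMM scaling and a library term; that pairing follows from the design, because the classes compared were sorted from 1 pool of animals per library. Gate genes were not reported. P-values were adjusted by Benjamini-Hochberg over all reported genes, with a threshold of 0.05. Standard errors were approximated from each log2 fold change and its F statistic. Levels are CPM of the summed counts, as mean ± SD over libraries. Binomial intervals are exact and cover counting error only.

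Named members were the 2 with the highest CPM in LEC per complex, the 2 with the largest called change in each direction and comparison (same sign in 3 libraries, 20 CPM or more in the higher sum), and a fixed set of isoform and complex II genes; of the other lists, the gene with the largest called change was eligible. Other genes named were chosen after their values were seen. Many members have processed pseudogenes, and reads shared with such copies make single-gene levels uncertain. Alternatives were DESeq2 1.42.0, no filter on low counts, no block, each library left out, cells thinned to 3000 UMIs, other gates, splits and denominators, and, added after seeing the data, library totals without TMM. In the thinned setting cells were gated again on their thinned counts. On simulated counts with 200 changed genes, the BEC comparison, over 11448 genes, recovered 42.3% at a log2 change of 1 and 83% at 2. The Fos comparison, over 12472 genes, recovered 93.9% and 100%. Unchanged genes called numbered 2 for BEC and 6 for Fos. All groups had the same base profile in the simulation. Members in the Fos split ran only from -0.52 to 0.43, so these rates do not cover changes of that size.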

Additional observations from a re-analysis of the deposited data

How the results depend on the processing

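The counts against epithelial cells (87 to 89 lower without each library) and smooth muscle cells (75 to 88 lower) stayed within 1.5 times under all settings run, except that members higher in LEC than in epithelial cells, 0 at first, became 1 with no filter on low counts, 1 with library totals and 2 with only those 2 classes in the fit. The counts of the smaller differences moved. With DESeq2 the members higher and lower were 2 and 8 against BEC, 9 and 11 against fibroblasts, 1 and 13 for Fos and 0 and 10 for Itih5, and 2 were higher for the mt- share. Of all genes, DESeq2 called 9.93% higher and 18.6% lower against BEC, 17.5% and 26.7% against fibroblasts and 10.3% and 4.88% for Fos. It called 2.84% higher and 3.52% lower for Itih5 and 1.37% higher for the mt- share. With no filter on low counts, 17 were higher against BEC and 0 with Itih5, beside 9.38% and 5.03% of all genes. Without the replicate block, 6 were higher against BEC, and 1 was higher and 1 lower for Fos (edgeR). For the mt- share 0 were higher, and for Itih5 0 were higher and 0 lower. At an unadjusted p under 0.05, that fit had 1 higher for the mt- share and 0 higher and 1 lower for Itih5. Of all genes, it called 14.3% higher against BEC, and 9.70% higher and 5.24% lower for Fos. It called 0.0079% higher for the mt- share, and 0.48% higher and 0.54% lower for Itih5. With library totals, 0 were higher and 81 lower for Fos, 24 higher for the mt- share and 12 lower for Itih5. Of all genes, that scaling called 8.44% higher and 48.3% lower for Fos, 9.20% higher for the mt- share and 6.35% lower for Itih5. After thinning to 3000 UMIs, 3 of 86 tested members were higher against fibroblasts, beside 20.0% of all genes. Of 91 tested for Fos 3 were higher and 18 lower, of 91 for the mt- share 3 were higher, and of 93 for Itih5 0 were higher and 17 lower. With only 2 classes in the fit, 37 were higher against fibroblasts, beside 27.1% of all genes. With barcodes in 2 gates kept as LEC, 2 were lower against BEC, beside 10.4% of all genes. A split at the median in place of tertiles gave 3 higher for Fos, beside 17.4% of all genes. Leaving out 1 library gave 0 to 2 higher against BEC, 9 to 12 higher against fibroblasts, 1 to 6 higher and 12 to 30 lower for Fos, 5 to 12 higher for the mt- share, and 0 higher and 13 to 38 lower for Itih5. Of all genes, those fits called 9.10% to 10.4% higher against BEC and 17.2% to 20.4% higher against fibroblasts. They called 12.7% to 16.9% higher and 7.19% to 14.2% lower for Fos, and 4.55% to 4.91% higher for the mt- share. For Itih5 they called 6.02% to 7.34% higher and 5.73% to 8.67% lower. The causes of these moves were not tested.

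The summed share of LEC was 1.73% with barcodes in 2 gates kept. That of epithelial cells was 5.84% without mt- genes in the denominator, 4.22% after thinning and gating again, and 4.73% with no limit on the mt- share. Among named members, 5 changed sign: Sdhaf1 against epithelial cells after thinning (0.10), and, for Fos with library totals, Uqcrfs1 (-0.0584), Ndufa6 (-0.0733), Cox6a1 (-0.0181) and Uqcrh (-0.0834). In 159 other cases a named gene kept its direction and lost its call, most often without the replicate block (28), without library 2 (26), after thinning (25) and with DESeq2 (20). With 36 to 72 BEC and 22 to 144 smooth muscle cells per library, members with few UMIs, such as Cox4i2 and Ndufa4l2, have wide errors in those comparisons.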
